A study of Homo sapiens with 6 samples.

Results

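The genes described here are 37 chains of the integrin and laminin families, 26 integrin chains (18 alpha and 8 beta) and 11 laminin chains. They were chosen by name from the families, out of 43492 genes that a probe of the array matched. The array files carried no gene name on any probe spot, so a probe was assigned to a chain where its sequence matched a transcript of that gene exactly and in sense. In this way 112 of the 125601 probes on the array belonged to the 37 chains, from 1 to 8 probes each, and 10 chains had a single probe. Where 1 value per chain is given, it is that of the chain's brightest probe, taken by the mean of the authors' deposited values.

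Expression was measured in SKOV3 cells, an established line from a human ovarian carcinoma, on Agilent arrays of 1 color with probes for mRNAs and long non-coding RNAs. In total, 3 arrays were labelled 1α,25(OH)2D3, the hormonal form of vitamin D, at 100 nmol/L (D3-labelled below), and 3 were labelled vehicle, which was ethanol at a matching concentration (vehicle-labelled), and both exposures lasted 72 h. Both groups come from 1 line grown in the same serum-containing medium. Nothing in the labels says that the 3 arrays of a label came from separate cultures, so p-values measure the spread between these arrays, which may be technical.

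Integrins are pairs of 1 alpha and 1 beta chain that span the cell membrane. They hold the cell to proteins outside it and connect to the actin skeleton inside. Laminins are cross-shaped trimers of an alpha, a beta and a gamma chain, and they are the main adhesive proteins of basement membranes, the sheets under epithelia that carcinoma cells cross when they invade. In ovarian carcinoma, integrins are known for attaching shed tumor cells to the lining of the abdominal cavity.

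Levels below are log2 processed signals relative to the array's 75th percentile, and differences are the mean of the D3-labelled arrays minus the mean of the vehicle-labelled arrays on that scale. Between 49.1% and 57.6% of the probes on an array were well above background, which is the scanner's own flag for a signal clear of background. The lowest share was that of vehicle replicate 2. The highest, 57.6% and 54.6%, were those of D3-labelled replicates 1 and 2. Rank correlations between the arrays ran from 0.934 to 0.96. CYP24A1, the enzyme that breaks down 1α,25(OH)2D3 and is strongly induced by it, went against the labels. On probe A_23_P28815 its level was -5.10, 6.70 and -3.80 on D3-labelled replicates 1, 2 and 3, and 6.90, -2.48 and 7.29 on the vehicle-labelled arrays. That probe was well above background on 3 arrays, D3-labelled replicate 2 and vehicle replicates 1 and 3, and the brightest CYP24A1 probe on these and on vehicle replicate 2, where its level was 1.07. Groups are therefore named by label throughout, and every direction below is one between labels.

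The integrin and laminin chains were mostly well above background, and no difference between the labels passed after adjustment. By the brightest probe, 30 of the 37 chains were well above background on all 6 arrays, 2 on some of them and 5 on none. Of the 31 chains that could be tested, 3 had an unadjusted p under 0.05, and all of these were lower with the D3 label. They were ITGA3 and ITGB1, which pair into a laminin receptor, and LAMB3, a laminin chain of epithelial basement membranes. Over all 63372 tested probes, 6.46% had an unadjusted p under 0.05, 3.9% being higher and 2.55% lower. No chain had an adjusted p under 0.05 (limma with Benjamini-Hochberg adjustment, adjusted p from 0.712 to 0.995), and 0% of all tested probes did. The number of arrays limits the precision, with standard errors of the difference from 0.14 to 0.67.

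The plot of the flag on each array shows which chains had a signal by their brightest probe, and the statements that follow are for that probe. All 8 beta chains were well above background on all 6 arrays, and so were all 3 laminin-binding alpha chains (ITGA3, ITGA6 and ITGA7). Among the 4 collagen-binding alpha chains, ITGA1 and ITGA11 were, whereas ITGA2 and ITGA10 were not well above background on any array. Another ITGA10 probe, of a non-coding transcript, carried the flag on D3-labelled replicate 2. Among the 4 alpha chains that recognize the RGD motif of fibronectin and vitronectin, ITGA5, ITGAV and ITGA2B were, and ITGA8 was not on any array. Both ITGA4 and ITGA9, which bind fibronectin, osteopontin and cell surface ligands, were well above background on all 6. For ITGA4 this held for its probe in exon 1 alone. None of its other probes carried the flag on any array. Among them was a probe wholly in the 3′ UTR of the canonical transcript, with levels from -4.92 to -4.46. Of the laminin chains, LAMA3, LAMA4, LAMA5, LAMB1, LAMB2, LAMB3, LAMC1 and LAMC3 were well above background on all 6 arrays. LAMA1, the alpha chain of the embryonic basement membrane, was not on any.

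**Figure D1:**
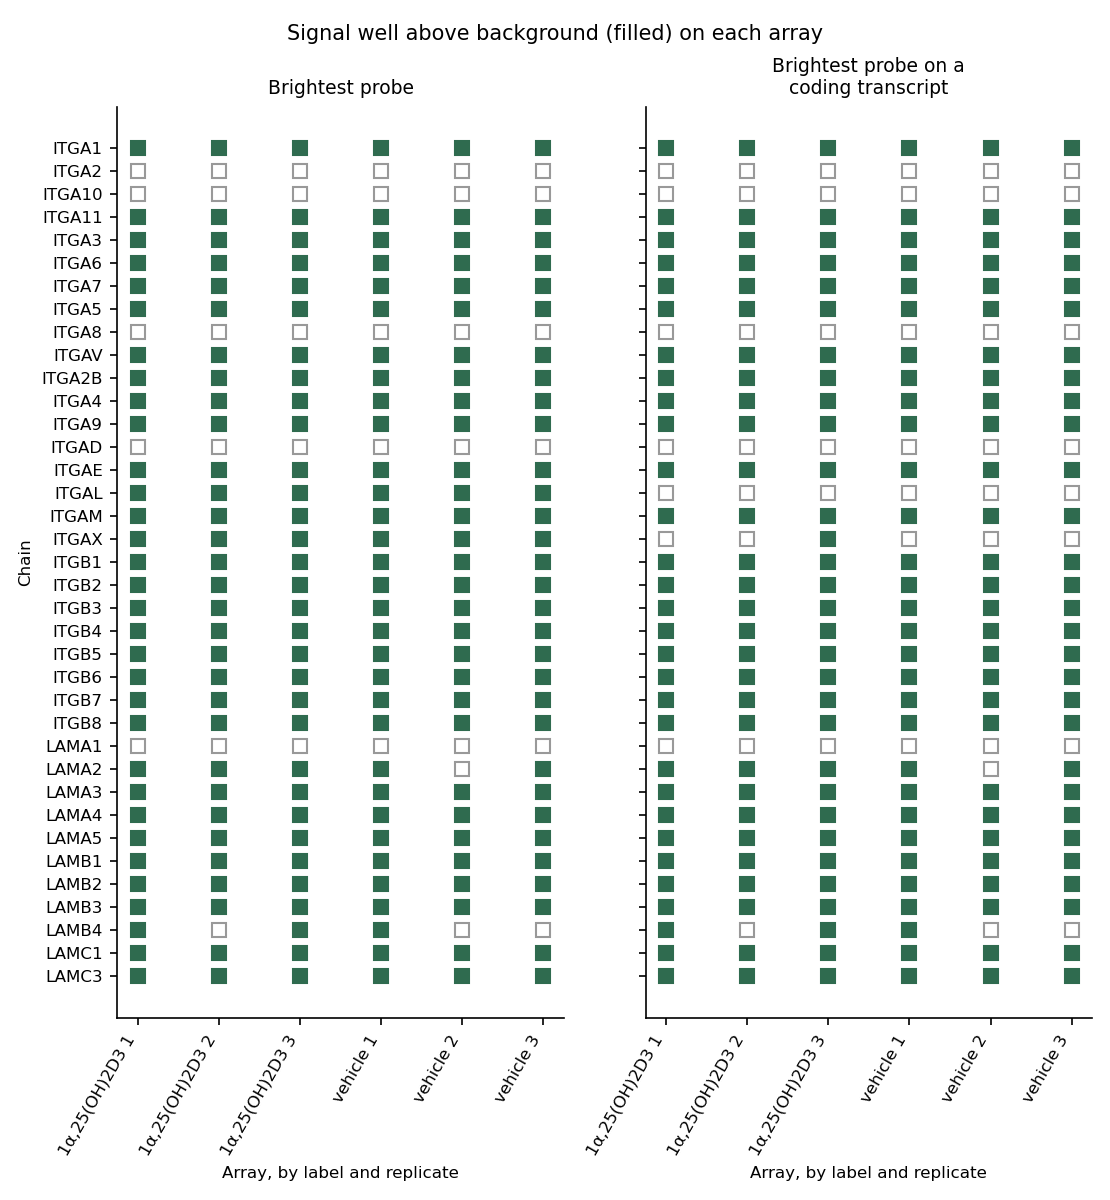
Signal of the 37 chains on each array. Rows are chains, columns are the 6 arrays by label and replicate, and a filled square marks a probe well above background. The left panel uses each chain's brightest probe and the right panel the brightest probe that matches a protein-coding transcript. On the left 30 chains are filled on all 6 arrays and on the right 28, the change being ITGAL and ITGAX. ITGB8 has no probe on a coding transcript and keeps its brightest probe on the right.

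By the brightest probe LAMA2 and LAMB4 were well above background on some arrays. LAMA2, the alpha chain of muscle and nerve basement membranes, lacked the flag on vehicle replicate 2 alone, and another of its probes, in a 5′ UTR, carried it on all 6 arrays. LAMB4 had it on 3 arrays, D3-labelled replicates 1 and 3 and vehicle replicate 1, and was not tested.

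Integrin chains act as pairs, and of 24 known human alpha-beta pairs, 20 had both chains well above background on all 6 arrays. With probes on coding transcripts, where a chain had one, the number was 18. By both choices these included 9 of the 12 pairs of ITGB1 and all 5 pairs of ITGAV, of which the pair with ITGB8 rested on a probe of a non-coding transcript because ITGB8 had none on a coding transcript. The missing pairs of ITGB1 were those with ITGA2, ITGA8 and ITGA10. The pairs of ITGA4 with ITGB1 and ITGB7 rested on the exon 1 probe of ITGA4 alone.

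Markers of other cell types carried the flag too. The leukocyte markers PTPRC, CD3E, CD14, CSF1R and SPI1 were well above background on all 6 arrays in 5 of 5 cases. So were 3 of 4 platelet markers, 3 of 4 endothelial markers and 2 of 5 fibroblast markers. Of the epithelial markers of the line, 8 of 9 had a probe and all 8 were well above background on all 6 arrays. None of these leukocyte, platelet, fibroblast or endothelial markers had an unadjusted p under 0.05. Of the epithelial markers, KRT19, a keratin, and MUC16, the cell surface mucin CA125, were lower with the D3 label, by -0.74 (SE 0.32) and -0.71 (SE 0.20), with unadjusted limma p-values of 0.0493 and 0.00792, and their part in the differences of the chains was not tested. In RNA from a whole culture, fewer cells of a type and less RNA per cell cannot be told apart.

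The laminin-binding alpha chains opened the comparison. ITGA3, the alpha chain that pairs with ITGB1 to bind laminins of epithelia, was measured by a probe in the 3′ UTR of its last exon (chr17:50090001-50090060, plus strand, hg38). Its level was 4.35, 4.84 and 4.66 on the D3-labelled arrays and 4.87, 5.72 and 5.57 on the vehicle-labelled arrays. Every vehicle-labelled array was higher, although vehicle replicate 1 stood only just above the nearest array of the other label. The difference was -0.77 (SE 0.26, limma, unadjusted p = 0.0174, adjusted p = 0.712). With the slide as a block it was -0.72 with an unadjusted p of 0.111. Without D3-labelled replicate 1, vehicle replicate 2 or vehicle replicate 3 it was -0.64, -0.60 and -0.68, with unadjusted p-values of 0.0664, 0.0633 and 0.0571.

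The other laminin-binding alpha chains did not pass. ITGA6, which pairs with ITGB1 or with ITGB4 of hemidesmosomes, differed by -0.16 (SE 0.33), and ITGA7, the main laminin receptor of muscle, by 0.00 (SE 0.17). The labels overlapped in both.

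ITGB1 is the beta chain with the most alpha partners. Its probe lies within the coding sequence of exon 13 (chr10:32911579-32911638, minus strand, hg38), and its sequence is shown because it is the 1 coding probe among the 3 chains with an unadjusted p under 0.05. Capitals mark bases within exons of the gene's canonical transcript, here and in the sequences further on.
ITGB1 A_23_P104199: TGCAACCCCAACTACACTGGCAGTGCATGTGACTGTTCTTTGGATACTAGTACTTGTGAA
The level of ITGB1 was 5.44, 5.93 and 5.28 on the D3-labelled arrays and 5.98, 6.27 and 6.09 on the vehicle-labelled arrays. The groups did not overlap, but D3-labelled replicate 2 and vehicle replicate 1 lay close together. The difference was -0.56 (SE 0.21, limma, unadjusted p = 0.0273, adjusted p = 0.712). Without D3-labelled replicate 1 or 3, or vehicle replicate 2 or 3, it was -0.51, -0.43, -0.48 and -0.58, with unadjusted p-values of 0.0844, 0.085, 0.0873 and 0.0554. With the slide as a block the difference was -0.83, with an unadjusted limma p of 0.0187. That value rests on D3-labelled replicate 3, the only D3-labelled array of slide 2.

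LAMB3 joins LAMA3 in the laminin that anchors epithelia to their basement membrane. Its single probe lies in the 3′ UTR (chr1:209615011-209615070, minus strand, hg38). The level was 4.64, 4.69 and 4.77 with the D3 label and 4.88, 5.65 and 5.42 with the vehicle label. The D3-labelled arrays lay close together and all below the others. The difference was -0.61 (SE 0.22, limma, unadjusted p = 0.0234, adjusted p = 0.712), and with the slide as a block it was -0.54 with an unadjusted p of 0.139. Without D3-labelled replicate 1 or 2, or vehicle replicate 2 or 3, it was -0.58, -0.61, -0.45 and -0.56, with unadjusted p-values of 0.0668, 0.0565, 0.0855 and 0.0669.

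LAMA3, its partner chain, was 4.22, 4.74 and 3.85 on the D3-labelled arrays and 3.95, 5.58 and 4.92 on the vehicle-labelled arrays. The groups overlapped, with vehicle replicate 1 among the D3-labelled arrays. The difference was -0.55 (SE 0.41), with an unadjusted limma p of 0.223, and it depended on single arrays. Leaving out vehicle replicate 1 gave -0.98 with an unadjusted p of 0.0177, vehicle replicate 2 gave -0.17 with 0.666, and D3-labelled replicate 3 gave -0.34 with 0.512. On vehicle replicate 2 ITGA3, ITGB1, LAMB3 and LAMA3 were each at their highest of the 6 arrays.

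The count of 3 chains rested on single arrays. Without D3-labelled replicate 1, or without vehicle replicate 2, 0 chains had an unadjusted p under 0.05. Without D3-labelled replicate 2 or replicate 3 the count was 5, and without vehicle replicate 1 it was 6. The number over all tested probes, 4091 of 63372, moved as well. It was 1558 of 63816 without D3-labelled replicate 1 and 2692 of 64954 without vehicle replicate 2. Leaving out D3-labelled replicate 2 or 3 gave 3422 of 64718 and 9993 of 66975, and leaving out vehicle replicate 1 gave 6691 of 63975. Past a 2-fold change with an unadjusted p under 0.05 there were 0 of 31 chains, against 0.811% of all tested probes. That count was 2 without vehicle replicate 1, against 1325 of 63975 tested probes, and 1 without vehicle replicate 3, against 717 of 63802.

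**Figure D2:**
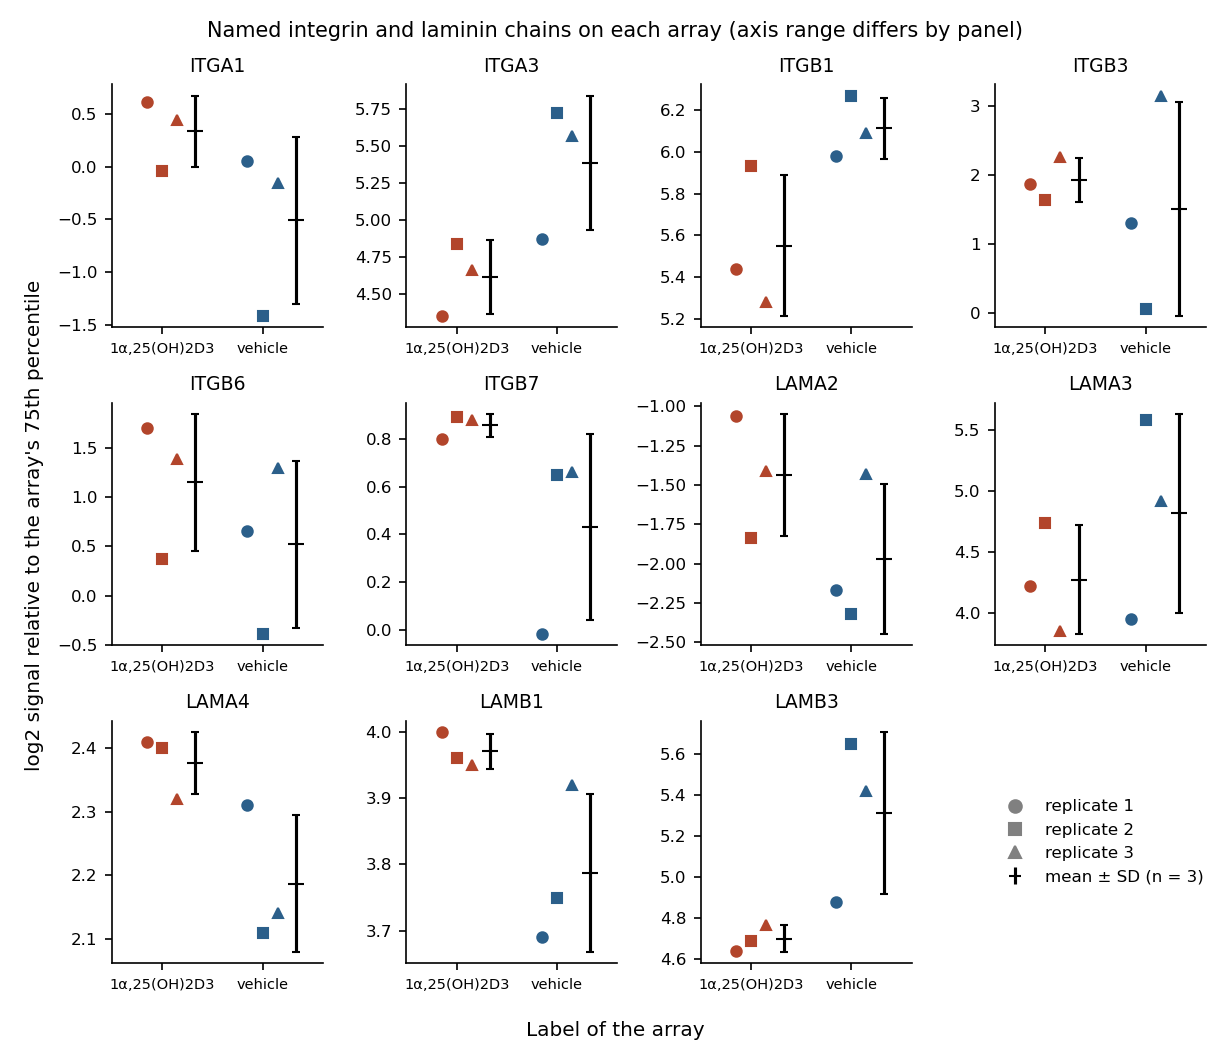
Levels of the 11 chains with an unadjusted p under 0.05, a difference of at least 0.5, labelled groups that did not overlap or one of the 5 widest ranges. The vertical axis is the level on the log2 scale, with its own range in each panel. Points are arrays, shaped by replicate number, and bars are the mean ± SD (n = 3). ITGA3, ITGB1 and LAMB3 sit lower on every D3-labelled array, and the single low point of ITGB3 at 0.06 is vehicle replicate 2.

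Some chains had higher levels on the D3-labelled arrays without passing. ITGA1, a receptor for collagen and laminin, was 0.61, -0.04 and 0.44 on them and 0.05, -1.42 and -0.16 with the vehicle label. The groups overlapped, and vehicle replicate 2 was lowest. The difference of 0.85 was the largest in size among the tested chains (SE 0.38, limma, unadjusted p = 0.06, adjusted p = 0.712). It was 0.39 without vehicle replicate 2, with an unadjusted p of 0.155, and 1.12 without vehicle replicate 1, with an unadjusted p of 0.0224. With the replicate number as a block it was 0.85 with an unadjusted limma p of 0.0098, though same-numbered arrays were not taken as pairs. With normexp background correction it was 0.54, with an unadjusted limma p of 0.0431.

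ITGB3 and ITGB6 both pair with ITGAV, the first as the vitronectin receptor and the second as an epithelial receptor that activates TGF-β. ITGB3 had the widest range of the tested chains, 3.09, with 1.87, 1.63 and 2.26 on the D3-labelled arrays and 1.30, 0.06 and 3.15 on the vehicle-labelled arrays. The vehicle-labelled arrays held both the lowest and the highest value. The difference of 0.42 (SE 0.67) changed sign to -0.31 without vehicle replicate 2 and was 1.24 without vehicle replicate 3, with unadjusted limma p-values of 0.568 and 0.0157.

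The ITGB6 probe spans the junction of exons 14 and 15 within the coding sequence (chr2:160101819-160107722, minus strand, hg38), and its sequence is shown as that of a coding probe with a wide spread between arrays of 1 label.
ITGB6 A_23_P154217: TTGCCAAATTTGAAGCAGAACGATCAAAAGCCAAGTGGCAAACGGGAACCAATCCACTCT
ITGB6 was 1.70, 0.37 and 1.38 on the D3-labelled arrays and 0.66, -0.39 and 1.29 on the vehicle-labelled arrays. Replicate 2 was the lowest array of both labels, and the groups overlapped. The difference was 0.63 (SE 0.48), with an unadjusted limma p of 0.227. It was 0.17 without vehicle replicate 2, 0.35 without D3-labelled replicate 1, and 1.01 when either D3-labelled replicate 2 or vehicle replicate 3 was left out, and none of these passed. With the replicate number as a block the difference of 0.63 had an unadjusted limma p of 0.0363, though same-numbered arrays were not taken as pairs.

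LAMA2 was -1.06, -1.84 and -1.41 with the D3 label and -2.17, -2.32 and -1.43 with the vehicle label. The groups overlapped, and the probe entered the test through the D3-labelled arrays, because vehicle replicate 2 lacked the flag. The difference was 0.54 (SE 0.29), with an unadjusted limma p of 0.104. It was 0.74 without D3-labelled replicate 2 and 0.81 without vehicle replicate 3, with unadjusted p-values of 0.0484 and 0.018. LAMA4, found in vessel and muscle basement membranes, was 2.41, 2.40 and 2.32 against 2.31, 2.11 and 2.14, and LAMB1, the common beta chain, was 4.00, 3.96 and 3.95 against 3.69, 3.75 and 3.92. Neither overlapped between the labels, yet the differences of 0.19 and 0.18 (SE 0.15 for both) had unadjusted limma p-values of 0.238 and 0.269. The LAMB1 probe has 19 of its 60 bases in exons of the canonical transcript. On the LAMB1 probe wholly in those exons the groups overlapped, with a difference of 0.17 (SE 0.16). Its other tested probes differed by -0.10 (SE 0.32) and -0.04 (SE 0.17), with overlap.

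By the brightest probe the labelled groups did not overlap in 6 of 31 tested chains, 3 higher with the D3 label (ITGB7, LAMA4 and LAMB1) and 3 lower. Over all tested probes the groups did not overlap in 6.3% with higher values and in 5.18% with lower values. The 31 differences ran from -0.77 to 0.85 with a median of 0.00, the same as the median over all tested probes, and 15 were above 0 and 15 below, where 50.3% of all tested probes were above 0. The median range over the 6 arrays was 0.72 for the chains and 0.70 for all tested probes.

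**Figure D3:**
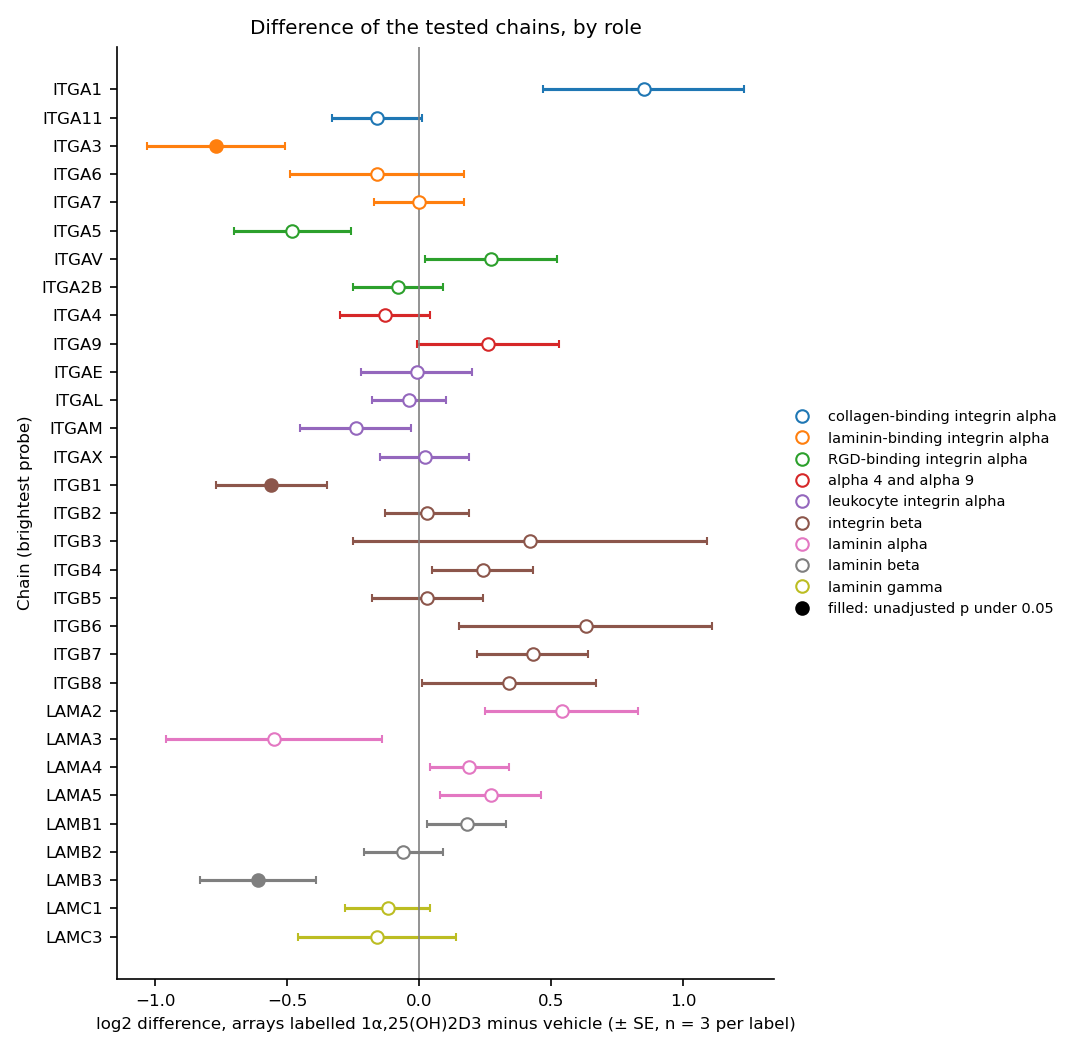
Difference of the 31 tested chains, D3-labelled arrays minus the vehicle-labelled arrays. The horizontal axis is the log2 difference with its standard error (n = 3 per label), colors are roles of the chains, and filled points have an unadjusted p under 0.05. The filled points are ITGA3 at -0.77, ITGB1 at -0.56 and LAMB3 at -0.61, and the widest error is that of ITGB3 at 0.67.

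The remaining chains differed by less than 0.5 between the labels. ITGA5, the fibronectin receptor chain, was 2.98, 3.62 and 3.12 against 3.48, 3.91 and 3.76, a difference of -0.48 (SE 0.22, limma, unadjusted p = 0.061, adjusted p = 0.712). ITGAV differed by 0.27 (SE 0.25), ITGB5 by 0.03 (SE 0.21), ITGB4 of hemidesmosomes by 0.24 (SE 0.19) and ITGB8 by 0.34 (SE 0.33). LAMC1, the gamma chain of most laminins, differed by -0.12 (SE 0.16). Among chains known mainly from other cells, the difference was -0.16 (SE 0.17) for ITGA11 of fibroblasts, -0.08 (SE 0.17) for ITGA2B of platelets, -0.13 (SE 0.17) for ITGA4, 0.26 (SE 0.27) for ITGA9 and 0.03 (SE 0.16) for ITGB2 of leukocytes. The ITGB2 probe lies in an intron of the canonical transcript, and both of its probes in canonical exons differed by -0.42 (SE 0.25) and -0.39 (SE 0.32) without passing.

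The probes of a chain lay in different places of the gene. The array also carries probes for non-coding transcripts, and of the 112 chain probes 46 lay wholly in exons of the gene's canonical transcript, 20 in part and 46 not at all. Among the brightest probes 28 of 37 lay wholly in those exons. Of 73 tested probes, 34 lay wholly in the exons, with a median difference of -0.12, 22 of them below 0 and 11 above, and the median over all tested probes on coding transcripts was -0.02. The 27 that lay outside had a median of -0.04, and the 12 that lay in part in the exons had a median of 0.20, with 11 above 0. The last group includes probes of ITGA7 and LAMA2, at 0.73 and 0.63, that entered the test only through the D3-labelled arrays, where they were higher. Its median and count are therefore not independent of that filter. Probes of 1 chain share their RNA samples and are not replicates, so these medians and counts are a description without a test, and whether the place of a probe went with its difference was not tested.

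**Figure D4:**
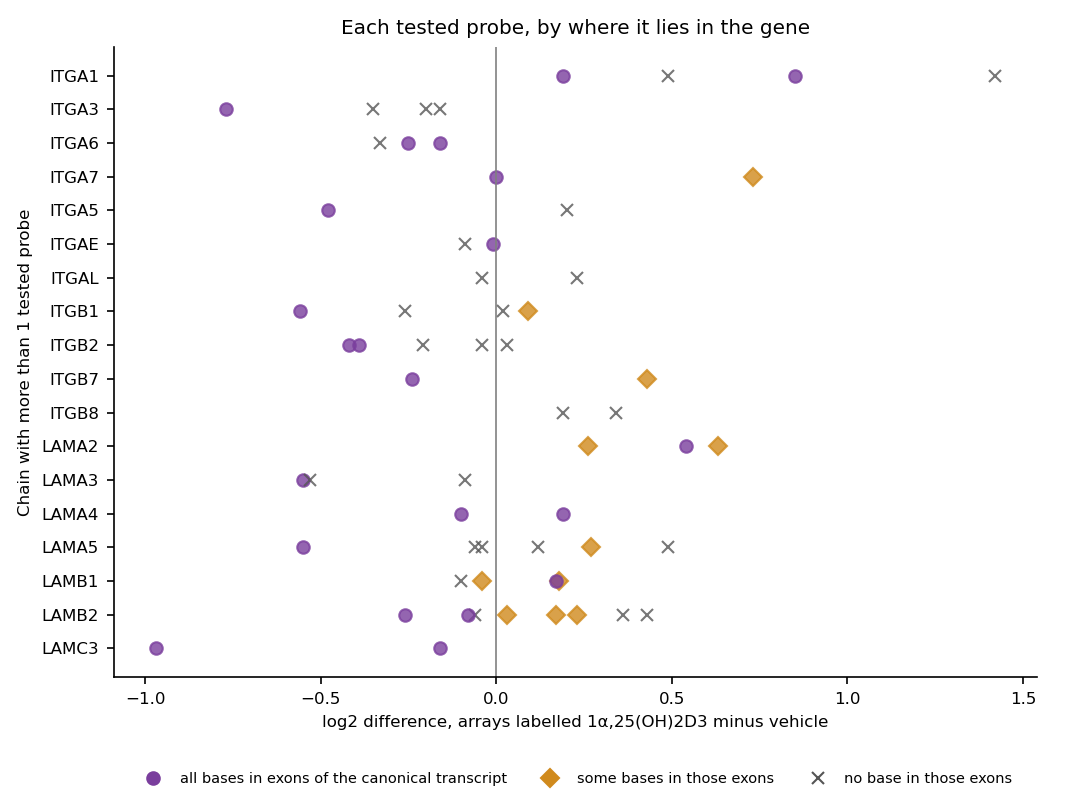
Difference of each tested probe of the 18 chains with more than 1. The horizontal axis is the log2 difference, D3-labelled arrays minus the vehicle-labelled arrays, and the symbols show whether all, some or no bases of the probe lie in exons of the canonical transcript. In LAMA5 the probe wholly in exons sits at -0.55 and the others between -0.06 and 0.49.

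In 18 chains more than 1 probe was tested, and in 9 of these no differences had opposite signs, while 9 held both signs. LAMA5, the alpha chain of most adult basement membranes, is shown by 2 of its 7 probes because their differences had opposite signs. The first lies in the coding sequence of exon 77 of 80 (chr20:62310246-62310305, minus strand, hg38), and the second, its brightest, lies in a retained intron and reaches 17 bases into the next exon (chr20:62318997-62319056, minus strand, hg38).
LAMA5 A_23_P109269: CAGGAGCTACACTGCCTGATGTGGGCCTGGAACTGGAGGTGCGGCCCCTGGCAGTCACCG
LAMA5 OEV5_27201: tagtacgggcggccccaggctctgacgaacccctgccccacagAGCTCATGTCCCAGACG
On the coding probe LAMA5 was 3.19, 3.08 and 3.38 with the D3 label and 3.66, 3.75 and 3.87 with the vehicle label. The groups were apart, and the difference was -0.55 (SE 0.16, limma, unadjusted p = 0.00958, adjusted p = 0.712). On the intron probe the values 7.01, 6.92 and 6.45 overlapped with 6.62, 6.49 and 6.47, and the difference was 0.27 (SE 0.19). With the brightest probe on a coding transcript for the 36 chains that have one, and ITGB8 kept on its brightest probe, 29 chains were tested and 4 had an unadjusted p under 0.05, LAMA5 joining ITGA3, ITGB1 and LAMB3, all lower. Of all tested probes on coding transcripts 4.69% had an unadjusted p under 0.05, 2.36% being lower.

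LAMC3, a gamma chain known from the brain and retina, has 2 coding probes, in exon 5 (chr9:131038948-131039007) and exon 27 (chr9:131087757-131087816, both plus strand, hg38) of 28. They are shown because probes of 1 gene gave unequal differences.
LAMC3 A_33_P3277532: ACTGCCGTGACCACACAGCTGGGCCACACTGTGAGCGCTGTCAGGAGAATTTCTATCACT
LAMC3 A_33_P3277527: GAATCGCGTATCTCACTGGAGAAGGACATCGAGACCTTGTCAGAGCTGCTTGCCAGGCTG
The exon 5 probe read -1.79, -2.31 and -1.83 against -2.39, -1.25 and -1.83, a difference of -0.16 (SE 0.30). The exon 27 probe read -2.44, -2.71 and -2.39 against -2.27, -0.90 and -1.44, a difference of -0.97 (SE 0.33, limma, unadjusted p = 0.0185, adjusted p = 0.712). On both probes vehicle replicate 2 was the highest array.

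The probes of LAMA4 were unequal in spread. Its last-exon probe had a range of 0.30 over the 6 arrays, whereas coding probes in exons 3 and 9 had ranges of 2.66 and 2.82. The exon 3 probe read -1.26, -0.39 and -1.52 with the D3 label and 0.42, -2.23 and -1.06 with the vehicle label, and the exon 9 probe read -2.63, -1.32 and -3.29 against -0.68, -3.50 and -2.19. Both placed the 6 arrays in 1 order, and the groups overlapped. From the highest it was vehicle replicate 1, D3-labelled replicate 2, vehicle replicate 3, D3-labelled replicates 1 and 3, and vehicle replicate 2. Vehicle replicates 1 and 3 and D3-labelled replicate 2 are also the arrays on which CYP24A1 probe A_23_P28815 was well above background. Whether the levels go together was not tested, and the last-exon probe was highest on D3-labelled replicate 1.

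ITGA3 and ITGB1 differed most on their probes in canonical exons. The other 3 tested probes of ITGA3 lie in introns, and their differences ran from -0.35 to -0.16. The other 3 tested probes of ITGB1 lie in alternative 3′ ends or in part outside the canonical exons, with differences from -0.26 to 0.09. Averaging the tested probes of a chain that matched no other gene gave -0.37 for ITGA3 and -0.18 for ITGB1. The unadjusted limma p-values were 0.143 and 0.46. With this mean 1 chain had an unadjusted p under 0.05, against 1570 of 24716 genes.

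The leukocyte integrins rested in part on probes outside coding transcripts. ITGAL, ITGAM, ITGAX and ITGAD pair with ITGB2 on blood cells, and ITGAE pairs with ITGB7 on T cells of epithelia. The signals of ITGAL, ITGAX and ITGB7 came from the probes below, in intron 18 of ITGAL (chr16:30505146-30505205, plus strand), at an exon start of ITGAX (chr16:31371598-31371657, plus strand) and at an exon start of ITGB7 (chr12:53194338-53194397, minus strand, all hg38). They are shown because none or only part of their bases are in the spliced message.
ITGAL OEV5_33356: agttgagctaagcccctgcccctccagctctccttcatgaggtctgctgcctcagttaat
ITGAX OEV5_28923: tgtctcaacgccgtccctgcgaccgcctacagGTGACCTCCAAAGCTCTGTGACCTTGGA
ITGB7 OEV5_32749: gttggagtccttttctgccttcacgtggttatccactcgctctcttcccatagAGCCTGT
The intron probe of ITGAL was well above background on all 6 arrays, with levels from 9.52 to 9.67, whereas its probe in the 3′ UTR was not on any. The ITGAX probe was also flagged on all 6, with levels from 1.61 to 2.00, and the chain's probe on a coding transcript only on D3-labelled replicate 3. ITGAM and ITGAE were well above background on all 6 arrays by probes in canonical exons and differed by -0.24 (SE 0.21) and -0.01 (SE 0.21). ITGAD was not on any array.

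ITGB7 on the probe above was 0.80, 0.89 and 0.88 with the D3 label and -0.02, 0.65 and 0.66 with the vehicle label. The groups did not overlap, and the difference was 0.43 (SE 0.21), with an unadjusted limma p of 0.0825. On its probe in the 3′ UTR the values 0.31, 0.47 and 0.75 overlapped with 0.58, 1.04 and 0.64, and the difference was -0.24 (SE 0.20). Both probes match ZNF740 on the opposite strand.

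LAMB2, the beta chain of kidney and nerve-muscle basement membranes, also had its brightest probe in an intron (intron 18, chr3:49125505-49125564, minus strand, hg38), shown as the probe that stood for the chain without a base of its exons.
LAMB2 OEV5_36327: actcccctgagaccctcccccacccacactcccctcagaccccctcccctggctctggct
That probe read between 11.00 and 11.23 on the 6 arrays, a difference of -0.06 (SE 0.15). The probe in the 3′ UTR read 3.26, 2.81 and 3.57 against 3.73, 3.01 and 3.13, a difference of -0.08 (SE 0.27), so neither differed beyond the spread.

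Of the 73 tested chain probes, 8 had an unadjusted p under 0.05 and 1 of these a fold change above 2. Over all tested probes the shares were 6.46% and 0.811%, and several of the 73 probes belong to 1 chain. That probe lies in intron 11 of ITGA1 and also matches RPL17P21, a pseudogene, so its source is uncertain. It read -1.22, -1.35 and -1.76 with the D3 label and -1.51, -4.30 and -2.78 with the vehicle label, a difference of 1.42 (SE 0.61, limma, unadjusted p = 0.0493). A probe of a non-coding transcript of ITGA7 and another of an alternative 5′ end of LAMA2 were higher, by 0.73 (SE 0.19) and 0.63 (SE 0.20), with unadjusted limma p-values of 0.00588 and 0.013 and no overlap between the labels. The ITGA7, LAMA2 and ITGA1 probes were flagged on all 3 D3-labelled arrays but on 0, 2 and 1 of the vehicle-labelled arrays. They entered the test only through the label where they were higher, so their p-values and their part in the count are not independent of that filter.

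The genes that act with integrins and laminins did not pass either. Of 35 listed genes 34 had a probe and 33 were tested, among them the talins, kindlins, vinculin and focal adhesion kinase that connect integrins to actin, and the matrix proteins they bind. With an unadjusted p under 0.05 there were 0 (limma, 0 after adjustment as well), against 6.46% of all tested probes. By the brightest probe 15 differences were above 0 and 18 below, and the median was -0.10. With the brightest probe on a coding transcript 32 were tested and 0 passed, but FN1, THBS1 and HSPG2 changed sign. FN1, the gene of fibronectin, went from -0.41 (SE 0.28) to 0.83 (SE 0.36), with an unadjusted limma p of 0.0538 on the coding probe. The lowest by the brightest probe was -0.74 (SE 0.51) for FERMT1, the kindlin of epithelia. The nearest to the threshold was ACTN4, an actin crosslinker, at -0.55 (SE 0.24), with an unadjusted limma p of 0.0507. TLN1, which activates integrins from inside the cell, was 4.88, 5.22 and 5.16 with the D3 label and 5.50, 5.29 and 5.60 with the vehicle label, a difference of -0.38 (SE 0.17).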

How the data were processed

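Expression was measured on 6 single-color arrays, 3 per label. The authors scanned them with Agilent Feature Extraction 10.7.1.1 (per the labels) and deposited the intensity of every spot, on a linear scale, as mean, background and processed signals with flags; per the file headers the software had removed spatial trends from the processed signal within each array. A table of log2 values, 1 per probe and array, was deposited too and is used here to choose the brightest probe of a gene and as an alternative. The annotation build named in the file headers is not the build used here: probes were matched without mismatch to GENCODE release 44 transcripts on hg38.

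Control spots and spots marked as outliers (1837 to 2471 of 175812 per array) were left out. No spot was saturated. For each probe the processed signal was averaged over its spots, divided by the array's 75th percentile and put on the log2 scale. A probe was well above background where at least 0.5 of its spots carried the flag. The 63372 probes flagged in this way throughout at least 1 label were fitted with limma 3.58.1 in R 4.3.3, two-sided, without a covariate, and adjusted by the Benjamini-Hochberg method over all of them. The fit was tested on simulated data. D3-labelled replicates 1 and 2 shared slide 1, and slide 2 held all 4 remaining arrays.

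The chains, the lists of other genes and the rules were chosen with earlier results of these data known. Named with values on every array are tested chains with an unadjusted p under 0.05, a difference of at least 0.5, labelled groups that do not overlap or one of the 5 widest ranges. ITGA5, TLN1 and the second probes of a chain were named after their values were seen. The alternatives were quantile normalization, normexp with an offset of 50, the deposited log2 values, 2 other filters, slide and replicate blocks and slide 2 alone. Others were an unpaired Student's t-test, the mean of a gene's tested probes, adjustment over coding probes and leaving out each array. The paper names limma for its arrays and the t-test for other experimental data. The brightest coding probe was added after seeing which probes were brightest. 1 listed marker gene is not reported here.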

Additional observations from a re-analysis of the deposited data

How the results depend on the processing

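No chain passed an adjusted p of 0.05 under any alternative that was run. The count of chains with an unadjusted p under 0.05 (3) was 6 with the replicate block and 0 by the unpaired t-test. It was 1 with the mean of a gene's tested probes and 0 to 6 when 1 array was left out. Over all 63372 tested probes the number was 4091 in the main fit, 4644 with the replicate block and 3491 by the t-test. It was 1570 of 24716 genes with the mean, and from 1558 of 63816 to 9993 of 66975 probes when 1 array was left out. The cause of these changes was not tested. Same-numbered arrays deviated together with correlations of 0.12, 0.09 and -0.04, so the numbers were not taken as pairs. The count with a fold change above 2 was 0 to 2 when 1 array was left out. The count of adhesion pathway genes (0) was 1 with quantile normalization, normexp, the deposited log2 values, the slide block, the replicate block and the t-test. In these settings the number over all 63372 tested probes ran from 2535 with the slide block to 4644 with the replicate block. The count was 2 with the filter on all 6 arrays, against 3502 of 57103 probes. It was 3 with the mean of a gene's tested probes and 0 to 6 when 1 array was left out. The median difference of the chains stayed between -0.08, with the brightest coding probe, and 0.12 and the number well above background on all 6 arrays between 28 and 31. Of 186 alternatives over the 11 named chains, 156 kept both direction and side of the threshold, 8 passed it newly, 20 no longer passed it and 2 reversed. All 20 that no longer passed were alternatives of ITGA3, ITGB1 and LAMB3, the 3 chains that passed in the main fit. The other named chains had not passed, so keeping their side of the threshold means only that they stayed above it. The chains that reversed were ITGB3 (0.42, then -0.31 without vehicle replicate 2 and 1.24 without vehicle replicate 3) and ITGB7 (-0.24 on its coding probe). Detection under normexp could not be given because the flags come from the scanner. Chains near the background, such as LAMA2 and LAMC3, are limited by their low signal.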
